A study of Mus musculus with 5 samples.

Results

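The genes described here are those with a mean of at least 20 counts over 2 libraries of Ba/F3 cells, the library labelled S_PXT1_K118R and the library labelled S_PXT1. Of the 50867 genes in the deposited table, 1356 met this rule, and 7928 further genes with a count in either library did not. S_PXT1_K118R differs from S_PXT1 in its label by K118R, which in the usual notation is a lysine to arginine substitution, and the comparison asks how expression with the substituted construct stood against expression with the unsubstituted one. Ba/F3 is a mouse pro-B cell line that needs interleukin-3 to grow, so it is often used to ask whether an introduced oncogene changes growth or survival.

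The series has 5 groups of 1 library each, all made from Ba/F3 cells infected with lentivirus. The groups are S_PXT1_K118R, S_PXT1, WT_K118R, WT and PMSCV, where PMSCV names a retroviral vector and the labels do not spell out S or WT. By its title, the series deals with how stable the mRNA of a leukaemia fusion gene is. The table gives human gene identifiers and human positions for these mouse cells, so genes carry human symbols, and a level is compared only between libraries. The species of the genome that reads were aligned to is not stated. A count of 0 therefore does not show that a gene was silent, and the split of counts among similar genes is uncertain. PXT1, the gene named in the labels, was at 0 counts throughout (3 counts per library would still be compatible with that), so it gives no check of the labels. With 1 library in each group no difference below has a replicate check, no p-value is given, and intervals cover counting error only.

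Several of the genes that stood apart belong to regulatory systems with known wiring. LDB1 bridges LIM-domain partners and GATA factors into complexes on blood cell enhancers. CITED2 binds the CBP and p300 acetyltransferases at a surface that HIF1A, the oxygen-regulated transcription factor, also uses. In Ba/F3 cells interleukin-3 signals through JAK2 and STAT5, and the gene for BCL-XL, BCL2L1, is a known target of that route.

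S_PXT1_K118R held 250409 counts over 7044 genes and S_PXT1 held 259047 counts over 7393 genes, against 266905 to 351693 counts and 11492 to 11712 genes in the other 3 libraries. The 1356 genes took 91.7% of the counts in S_PXT1_K118R and 91.5% in S_PXT1. Markers of the labelled cell type were all but absent: the 18 pro-B cell genes of the list summed to 1 count in S_PXT1_K118R and 5 in S_PXT1, with 17 and 15 of them at 0. The other libraries had little more, with 16 counts in WT_K118R, 29 in WT and 18 in PMSCV. The 7 genes of the list that holds the interleukin-3 receptor subunits, KIT, CD44, PTPRC and SPN were all at 0 in the pair. That list had 31 counts in WT_K118R, 25 in WT and 10 in PMSCV. Markers of other cell types divided the libraries in the same way. The 17 keratins and epithelial genes summed to 1 count in S_PXT1_K118R and 1 in S_PXT1, against 628, 875 and 370 in WT_K118R, WT and PMSCV, with 16 of the 17 at 0 in each of the first pair. The 13 immunoglobulin genes summed to 2 counts in each of that pair, against 29, 505 and 748. None of these genes is among the 1356. Within the pair, smooth muscle genes summed to 12 counts in S_PXT1_K118R and 1 in S_PXT1, and fibroblast and endothelial genes to 346 and 338, nearly all from COL1A1, COL3A1, VIM and SPARC. What part such RNA had in the ratios below was not tested.

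Most genes stood at like levels in the 2 libraries. Of the 1356 genes, 1282 (94.5%) lay within 2-fold, 32 (2.36%) were at least 2-fold higher in S_PXT1_K118R and 42 (3.1%) at least 2-fold lower, which makes 74 (5.46%) in all. The median log2 ratio was -0.02, with quartiles of -0.24 and 0.15. The 95% interval of the ratio of the 2 counts excluded 1 for 224 genes (16.5%). All 74 are among them, which adds no support, since at these counts a 2-fold ratio leaves an interval that excludes 1. Genes past 2-fold were more frequent at low counts, with 8.47% of the 555 genes at a mean of 20 to 50 counts, 4.40% of the 341 at 50 to 100, and 2.61% of the 460 at 100 or more. At a mean of 100 or more, 2 genes were higher and 10 lower. The counts of genes past 2-fold within lists below stand beside the 5.46% over all genes. Next to the threshold, the 14 genes with a mean of exactly 20 had 14 to 40 counts in S_PXT1_K118R and 0 to 26 in S_PXT1, and the 24 genes at a mean of 19.5 had 10 to 27 and 12 to 29. A gene with fewer than 20 counts in 1 library of the pair met the threshold only through the other library. Its direction was thus tied to the selection, as for NFKBIA, SLC7A6, DIAPH1, GMFB and HMGB2.

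**Figure D1:**
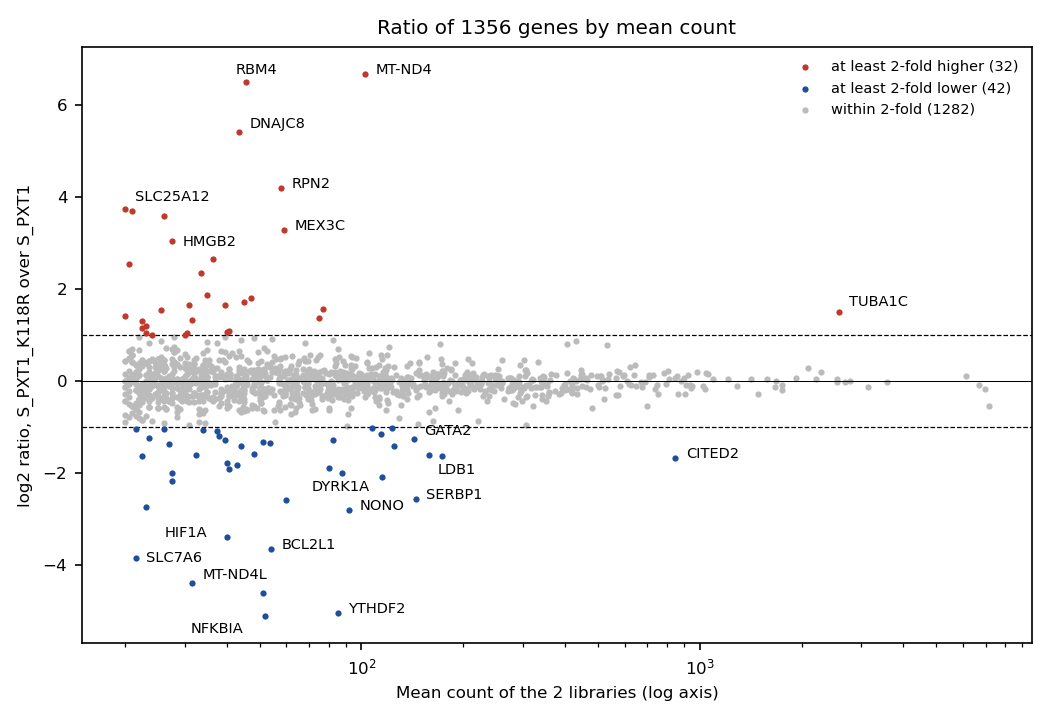
Log2 ratio of TMM-scaled counts, S_PXT1_K118R over S_PXT1 (vertical axis), against the mean count of the 2 libraries (log axis) for 1356 genes, each a point. Red marks the 32 genes at least 2-fold higher and blue the 42 at least 2-fold lower (dashed lines at 2-fold), and a library with 0 counts is set to 3 counts. CITED2 and TUBA1C stand out among genes with high counts.

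CITED2, LDB1 and GATA2, regulators of transcription in blood cells, were at least 2-fold lower in S_PXT1_K118R. CITED2 (ENSG00000164442, chromosome 6, 139371807 to 139374620 as the table places it, on a build that neither labels nor header name) had 403 counts in S_PXT1_K118R and 1291 in S_PXT1. Scaled to a common library size, as CPM, these were 1584 in S_PXT1_K118R and 5033 in S_PXT1, beside 394, 1761 and 1600.3 CPM in WT_K118R, WT and PMSCV, so S_PXT1 was the high library of the 5. The level in S_PXT1_K118R was 3.18-fold lower than in S_PXT1 (95% interval 2.84 to 3.56). LDB1 (chromosome 10, 102107560 to 102120453) had 306.6 CPM in S_PXT1_K118R and 932 in S_PXT1, beside 299, 243 and 263 CPM in WT_K118R, WT and PMSCV. It was 3.04-fold lower (2.34 to 3.98). For GATA2 (chromosome 3, 128479427 to 128493185), a transcription factor of blood stem and progenitor cells, the levels were 330.2 CPM in S_PXT1_K118R and 787.5 in S_PXT1, beside 364.5, 374 and 341 CPM in WT_K118R, WT and PMSCV. It was 2.38-fold lower (1.84 to 3.11), and it was the 1 gene with counts in either library on the list of mast cell and basophil markers. LDB1 and GATA2, like CITED2, were at least 2-fold above each other library in S_PXT1 alone.

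The promoters of these 3 genes in the mouse, where the cells come from, are shown because the genes share this pattern. They are the first listed start of each gene in RefSeq on GRCm38.p6, from 250 bases before the start to 50 after it, and capitals mark a motif match. Ldb1, Gata2 and Bcl2l1 have 3, 2 and 3 listed starts, and matches at their other starts are not given here. BCL2L1 and NFKBIA, lower genes described further on, are shown beside them.
Cited2 promoter, chr10:17722978-17723277, plus strand: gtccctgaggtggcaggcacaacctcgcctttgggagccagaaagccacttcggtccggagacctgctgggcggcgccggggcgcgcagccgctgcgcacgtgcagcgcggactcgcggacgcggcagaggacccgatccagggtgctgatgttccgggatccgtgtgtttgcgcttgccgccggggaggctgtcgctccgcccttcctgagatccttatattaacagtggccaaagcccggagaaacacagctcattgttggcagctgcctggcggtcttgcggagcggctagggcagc
Ldb1 promoter, chr19:46045262-46045561, minus strand: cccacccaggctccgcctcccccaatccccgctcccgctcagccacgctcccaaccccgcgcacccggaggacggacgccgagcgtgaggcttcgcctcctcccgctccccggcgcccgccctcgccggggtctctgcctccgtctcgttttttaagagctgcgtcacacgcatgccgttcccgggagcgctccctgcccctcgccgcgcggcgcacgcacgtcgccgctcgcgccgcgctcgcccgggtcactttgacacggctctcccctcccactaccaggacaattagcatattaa
Gata2 promoter, chr6:88193641-88193940, plus strand: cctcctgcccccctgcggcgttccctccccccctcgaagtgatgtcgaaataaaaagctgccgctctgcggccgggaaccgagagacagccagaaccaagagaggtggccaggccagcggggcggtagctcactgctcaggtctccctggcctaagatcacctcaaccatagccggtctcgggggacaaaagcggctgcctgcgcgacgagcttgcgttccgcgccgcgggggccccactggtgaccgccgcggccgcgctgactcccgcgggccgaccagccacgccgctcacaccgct
Bcl2l1 promoter, chr2:152828440-152828739, minus strand: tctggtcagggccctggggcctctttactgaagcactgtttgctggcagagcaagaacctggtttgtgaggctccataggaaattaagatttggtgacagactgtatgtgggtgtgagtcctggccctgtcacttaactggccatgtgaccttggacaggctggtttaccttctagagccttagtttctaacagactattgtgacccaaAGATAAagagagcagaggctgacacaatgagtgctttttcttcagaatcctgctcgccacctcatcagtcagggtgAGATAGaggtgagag
Nfkbia promoter, chr12:55492598-55492897, minus strand: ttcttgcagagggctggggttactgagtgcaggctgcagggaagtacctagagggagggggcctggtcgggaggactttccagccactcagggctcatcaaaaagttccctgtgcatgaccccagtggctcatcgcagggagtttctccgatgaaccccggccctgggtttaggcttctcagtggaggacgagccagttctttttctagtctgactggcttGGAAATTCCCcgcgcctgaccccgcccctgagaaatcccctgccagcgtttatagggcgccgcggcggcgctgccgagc
Both strands were searched for GATA letters (AGATAA or AGATAG as well as TGATAA or TGATAG), for a STAT pattern (TTCNNNGAA) and for a kB pattern (GGG and TTTCC with any 2 bases between them), the binding pattern of NF-kB factors. The 3 promoters of Cited2, Ldb1 and Gata2 held none of them, and that of Bcl2l1 held 2 GATA matches, 41 bases before and 35 bases after the start. That of Nfkbia held 1 kB match, on the reverse strand, starting 29 bases before the start of transcription and in capitals above. Of all 32851 promoters of this length in the table, 29.8% held GATA letters, 8.30% the STAT pattern and 1.63% the kB pattern. The STAT and kB patterns can share letters, and no such overlap stood in the promoters shown. A match is a string of letters and not a shown binding site. Promoters were matched by symbol for 999 of the 1356 genes, 28 of the 42 lower ones and 26 of the 32 higher ones, and GATA letters stood in 152, 5 and 5 of these.

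Other blood cell regulators lay within 2-fold. The list of such factors held 11 genes, 2 of them lower and 0 higher, while 5.46% of all 1356 genes were past 2-fold. The list had a median log2 ratio of -0.27 against -0.02 over all 1356 genes. SPI1, the myeloid and B cell factor PU.1, had 503 CPM in S_PXT1_K118R and 542 in S_PXT1, beside 505.9 in WT and 402 in PMSCV, while WT_K118R had 1 count. The proto-oncogene MYCN, a MYC family factor, was higher in S_PXT1_K118R, with 54 counts against 26 in S_PXT1 and 20, 24 and 16 in WT_K118R, WT and PMSCV. This was 2.09-fold (1.29 to 3.48).

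Around CBP and p300 the direction was mixed. HIF1A (chromosome 14, 61695513 to 61748259) had 7 counts in S_PXT1_K118R and 73 in S_PXT1, with 105, 90 and 61 in WT_K118R, WT and PMSCV. Its level was 10.3-fold lower (4.77 to 26.6), and S_PXT1_K118R was the low library of the 5. NCOA2, a nuclear receptor coactivator, was 2.07-fold lower (1.22 to 3.62). MED1, the Mediator subunit that nuclear receptors contact, had 452 CPM in S_PXT1_K118R and 152 in S_PXT1, beside 184, 164 and 146 CPM in WT_K118R, WT and PMSCV. It was 2.97-fold higher (2.05 to 4.39). The acetyltransferase EP300 itself had 23 counts in S_PXT1_K118R against 35 in S_PXT1, an interval of 0.374 to 1.15 for the fold, which includes 1. CREBBP, the gene for CBP, lay below the threshold, with 18 counts in S_PXT1_K118R and 20 in S_PXT1. In the list of 8 genes 1 was higher and 3 lower, while 5.46% of all 1356 genes were past 2-fold. The median log2 ratio of the list was -0.38. It was -0.22 for 10 genes with a mean of at least 10, and -0.08 for 4 genes with a mean of at least 50.

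Of 3 survival genes above the threshold, BCL2L1 was the 1 that differed by 2-fold. BCL2L1 (chromosome 20, 31664452 to 31723989) had 8 counts in S_PXT1_K118R and 100 in S_PXT1, or 31.4 and 389.9 CPM, while WT_K118R, WT and PMSCV held 267, 260.3 and 259.6 CPM. The level was 12.4-fold lower (6.05 to 29.5), and no other library came near it. BCL2, the founding survival gene of the family, had 56 counts against 64, a fold of 0.882 (0.605 to 1.28). BIRC6, a large inhibitor of apoptosis protein, had 109 counts in S_PXT1_K118R and 121 in S_PXT1. MCL1, a further survival gene, lay below the threshold of 20, with 4 and 3 counts.

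In the NF-kB route the inhibitor was the gene that differed. NFKBIA (chromosome 14, 35401511 to 35404749) encodes I-kappa-B-alpha, which holds NF-kB in the cytoplasm and is itself an NF-kB target. It had 0 counts in S_PXT1_K118R and 104 in S_PXT1, at least 34.4-fold lower with 0 taken as 3 counts (the lower limit of the 95% interval is 27.5), with 49 in WT_K118R, 3 in WT and 80 in PMSCV. S_PXT1_K118R and WT were thus both near 0. The kinases CHUK and MAP3K7 and the adaptor TAB2, which act above it, lay within 2-fold, with log2 ratios of 0.23, 0.10 and -0.20.

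Genes of interleukin-3 signalling above the threshold did not differ by 2-fold. STAT5B had 153 CPM in S_PXT1_K118R and 133 in S_PXT1, beside 140.4 to 154 CPM in the other 3 libraries, a fold of 1.16 (0.711 to 1.89). STAT3 and the exchange factor SOS1 had log2 ratios of 0.66 and 0.08. BRAF, a kinase of the ERK pathway, had a log2 ratio of 0.28, and JUNB, an immediate-early gene, had -0.20. DYRK1A, a kinase of the DYRK family that phosphorylates splicing and cell cycle proteins, was low in S_PXT1_K118R alone. It stood at 173 CPM there and 725 in S_PXT1, beside 696, 728 and 629 CPM in WT_K118R, WT and PMSCV, 4.19-fold lower (3.004 to 5.96). The amino acid transporter SLC7A6 had 0 counts in S_PXT1_K118R against 43 in S_PXT1 and 40 to 58 in the other 3 libraries, at least 14.2-fold lower (lower limit 11.1). ILK, the integrin-linked kinase, had 35 counts in S_PXT1_K118R and 6 in S_PXT1, with 66, 50 and 37 in WT_K118R, WT and PMSCV, 5.88-fold higher (2.45 to 17.1).

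YTHDF2 (chromosome 1, 28736621 to 28769775) binds N6-methyladenosine in mRNA and recruits the CCR4-NOT deadenylase. It had 5 counts in S_PXT1_K118R and 165 in S_PXT1, with 332, 218 and 137 in WT_K118R, WT and PMSCV. The level was 32.7-fold lower (13.7 to 102), and only S_PXT1_K118R was low among the 5. YTHDF3 and YTHDC1, other readers above the threshold, lay within 2-fold: YTHDF3 had 802 CPM in S_PXT1_K118R and 842 in S_PXT1, and YTHDC1 had 995 and 901. YTHDF1 was too low to compare, with 1 count in S_PXT1_K118R and 4 in S_PXT1. In the list of methylation writers and readers 1 of 7 genes was lower and 0 higher, with a median log2 ratio of -0.07, which turned to 0.10 when genes with a mean of at least 10 were taken.

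SERBP1 (chromosome 1, 67407810 to 67430415), an mRNA and ribosome binding protein, was low in both libraries and lower with the substitution. It had 42 counts in S_PXT1_K118R and 248 in S_PXT1, against 3131, 2866 and 2271 in WT_K118R, WT and PMSCV. S_PXT1_K118R was 5.86-fold below S_PXT1 (4.21 to 8.33). PABPC1, the cytoplasmic poly(A)-binding protein and among the most counted genes, had 22871.9 CPM in S_PXT1_K118R and 33118 in S_PXT1, beside 27678, 22439.6 and 21870.2 CPM in WT_K118R, WT and PMSCV. It was 1.45-fold lower (1.40 to 1.497), short of the 2-fold threshold. CNOT9, a CCR4-NOT subunit, was higher, at 425 CPM in S_PXT1_K118R and 164 in S_PXT1, with 338 CPM in WT_K118R, 140.4 in WT and 171 in PMSCV. The fold was 2.59 (1.80 to 3.80). Of 32 mRNA stability and poly(A)-binding genes, CNOT9 alone was higher and SERBP1 alone lower by 2-fold, and the median log2 ratio was -0.02. MEX3C, an RNA-binding ubiquitin ligase, had 107 counts in S_PXT1_K118R and 11 in S_PXT1, with 157, 119 and 99 in WT_K118R, WT and PMSCV, 9.81-fold higher (5.27 to 20.2).

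Alternative subunits of cleavage factor I differed in opposite directions. CPSF6 and CPSF7 are alternative large subunits that bind NUDT21 and steer the choice of poly(A) site. CPSF6 had 35 counts in S_PXT1_K118R and 140 in S_PXT1, with 159 in WT_K118R, 164 in WT and 33 in PMSCV, 3.97-fold lower (2.72 to 5.92). CPSF7 had 55 and 26 counts in S_PXT1_K118R and S_PXT1, with 66, 74 and 41 in WT_K118R, WT and PMSCV, 2.13-fold higher (1.32 to 3.54). NUDT21 had 37 counts in S_PXT1_K118R against 50 in S_PXT1, a log2 ratio of -0.42. The other 7 genes of the list lay within 2-fold.

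Splicing regulators were mostly level. SRSF10, an SR-like splicing repressor, had 334 CPM in S_PXT1_K118R and 1021 in S_PXT1, beside 447.5, 570.3 and 494 CPM in WT_K118R, WT and PMSCV, 3.06-fold lower (2.38 to 3.95). NONO, a paraspeckle protein, had 90.4 CPM in S_PXT1_K118R and 628 in S_PXT1, beside 139, 178 and 171 CPM in WT_K118R, WT and PMSCV, 6.94-fold lower (4.47 to 11.3), with S_PXT1 the high library of the 5. KHDRBS1, the signalling-regulated RNA-binding protein SAM68, was 2.01-fold lower (1.503 to 2.71). DNAJC8 (chromosome 1, 28199456 to 28233025), a J-domain protein of the spliceosome, had 85 counts in S_PXT1_K118R and 2 in S_PXT1, with 94, 137 and 76 in WT_K118R, WT and PMSCV. Its fold was 42.9 higher (11.5 to 359.6), and S_PXT1 was the low library. Of 18 core spliceosome genes 0 were past 2-fold, and their summed counts gave a fold of 1.02 (0.963 to 1.07). Of 22 SR and related genes 2 were lower, SRSF10 and DYRK1A, and of 44 hnRNP and RBM genes 1 was higher and 2 lower.

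The 1 higher gene of that last list, RBM4, a splicing regulator, depends on how overlapping gene models share reads. RBM4 had 90 counts in S_PXT1_K118R and 1 in S_PXT1, and RBM14-RBM4, a model that joins it to its neighbour RBM14, had 4 and 98. Summed over the 4 overlapping models on that strand, the locus had 405 counts in S_PXT1_K118R and 480 in S_PXT1, a log2 ratio of -0.23, so the high ratio of RBM4 was not kept. The same holds for SENP3, a SUMO protease, with 39 and 3 counts: its locus had 74 and 52, a log2 ratio of 0.52. In all, 8 of the 74 genes overlapped another model on their strand, and after summing 3 of them had the opposite sign. For HIF1A and ZNF800 the overlapping models added no counts in the pair, so summing was no check.

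Chromatin genes mostly lay within 2-fold, and the exceptions went in both directions. Of 11 CBX and Polycomb genes 2 were lower and 0 higher, and of 22 remodelling genes 1 was lower and 0 higher. Of 22 histone methylation and acetylation enzymes 1 was higher and 1 lower, and of 4 HMG genes 1 was higher and 0 lower. Over all 1356 genes 5.46% were past 2-fold. The median log2 ratios of these lists were -0.09, -0.12, 0.02 and -0.06. CBX1, the heterochromatin protein HP1-beta, had 267 CPM in S_PXT1_K118R and 706 in S_PXT1, beside 676 in WT_K118R, 246 in WT and 203 in PMSCV, 2.64-fold lower (1.99 to 3.54). S_PXT1 and WT_K118R were the high libraries for this gene. ASXL1, a Polycomb-associated protein mutated in myeloid leukaemia, was 2.98-fold lower (1.85 to 4.94), with 94.3 CPM in S_PXT1_K118R and 281 in S_PXT1, and S_PXT1 was again the high library. ATAD2, a bromodomain ATPase, and BAZ1A, a subunit of ISWI remodelling complexes, were low in S_PXT1_K118R alone, 3.97-fold (2.02 to 8.52) and 3.07-fold (1.52 to 6.71). The histone methyltransferase NSD3 was 2.58-fold lower (1.39 to 5.03), and the histone demethylase KDM5B was 3.31-fold higher (2.01 to 5.69), at 69 counts against 21. EZH2, the Polycomb methyltransferase, was level, with 833 CPM in S_PXT1_K118R and 756 in S_PXT1. HMGB2, a DNA-bending chromatin protein, had 49 counts in S_PXT1_K118R and 6 in S_PXT1, with 67 in WT_K118R, 19 in WT and 56 in PMSCV, 8.24-fold higher (3.52 to 23.5).

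Genes of the endoplasmic reticulum differed in both directions. RPN2 (chromosome 20, 37178410 to 37241623), a subunit of the oligosaccharyltransferase that adds N-glycans, had 110 counts in S_PXT1_K118R and 6 in S_PXT1, with 161, 191 and 127 in WT_K118R, WT and PMSCV. It was 18.5-fold higher (8.23 to 51.5), and the 4 libraries other than S_PXT1 stood close together. P4HB, a protein disulphide isomerase, had 38 and 13 counts in S_PXT1_K118R and S_PXT1, with 34 to 44 in the other 3 libraries, 2.95-fold higher (1.54 to 6.03). Of the 12 genes in this list 2 were higher and 0 lower, while 5.46% of all 1356 genes were past 2-fold. The median log2 ratio was 0.29 against -0.02 over all genes, and summed counts gave a fold of 1.34 (1.19 to 1.52). RPN2 gave 110 of the 612 summed counts in S_PXT1_K118R and 6 of the 460 in S_PXT1. At a mean of at least 10, with 20 genes, the median turned to -0.05. Outside the list CCDC47, a membrane protein of this compartment, was 4.46-fold lower (2.22 to 9.93) and low in S_PXT1_K118R alone. The membrane proteins SERP1 and DERL1, also outside it, were 2.55-fold (1.65 to 4.02) and 2.64-fold (1.63 to 4.42) lower.

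Among cytosolic chaperones HSP90AA1 (chromosome 14, 102080738 to 102139699), the stress-inducible HSP90, had 17 counts in S_PXT1_K118R and 103 in S_PXT1, with 231, 169 and 162 in WT_K118R, WT and PMSCV. It was 6.01-fold lower (3.58 to 10.7), and S_PXT1_K118R was the low library of the 5. Its constitutive partner HSP90AB1 had 48 counts against 55, a fold of 0.880 (0.585 to 1.32). CCT7, a chaperonin subunit, was 2.05-fold lower, with an interval of 1.05 to 4.21 that comes close to 1. In the list of 14 genes 1 was higher, DNAJC8, and 2 lower, while 5.46% of all 1356 genes were past 2-fold. The median log2 ratio of the list was -0.14.

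Of 23 cytosolic ribosomal protein genes, 3 were higher and 0 lower, while 2.36% of all 1356 genes were higher and 3.1% lower. The 3 had low counts, and at a mean of 20 to 50 counts 8.47% of all genes were past 2-fold. RPL8, RPL13 and RPL5 of the large subunit were 2.52-fold (1.43 to 4.63), 2.30-fold (1.20 to 4.67) and 2.08-fold (1.09 to 4.15) higher, at 31 to 45 counts in S_PXT1_K118R and 14 to 18 in S_PXT1. The other 20 genes of the list lay within 2-fold, RPL10A lowest at a log2 ratio of -0.68. Summed counts gave a fold of 1.01 (0.968 to 1.05), and RPLP0, with 2675 and 2712 counts, supplied most of that sum of 4692 counts in S_PXT1_K118R and 4695 in S_PXT1. Of 20 translation factors 0 were past 2-fold.

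The 9 enzymes of glycolysis had a median log2 ratio of 0.42 and a summed fold of 1.25 (1.11 to 1.40), but TPI1, triose-phosphate isomerase, was the 1 gene past 2-fold, with 29 counts in S_PXT1_K118R and 11 in S_PXT1 (fold 2.66, 1.29 to 5.90). ENO1 and GAPDH had folds of 1.42 (1.06 to 1.92) and 1.41 (1.07 to 1.85). LDHA and LDHB lay on the other side, with log2 ratios of -0.43 and -0.22. GMPS, which makes GMP, had 287 CPM in S_PXT1_K118R and 81.9 in S_PXT1, beside 284, 225 and 288 CPM in WT_K118R, WT and PMSCV, 3.51-fold higher (2.13 to 5.998).

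Of 26 listed mitochondrial carriers 2 met the threshold, and both were higher. SLC25A12 and SLC25A5 each met it only through their counts in S_PXT1_K118R, so the direction of both was set by the selection. SLC25A12, the aspartate/glutamate carrier, had 40 counts in S_PXT1_K118R and 0 in S_PXT1, at least 13.4-fold higher (lower limit 10.4), with 39 in WT_K118R, 46 in WT and 1 in PMSCV. SLC25A5, an ADP/ATP carrier with near-identical relatives, had 63 and 10 counts, with 24 in WT_K118R, 91 in WT and 39 in PMSCV, 6.35-fold higher (3.24 to 13.9). The low libraries were S_PXT1 and PMSCV for the first carrier, and S_PXT1 and WT_K118R for the second. SLC25A4 and SLC25A6, relatives of SLC25A5 below the threshold, had 27 and 6 counts in S_PXT1_K118R and 0 and 5 in S_PXT1.

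Genes of the mitochondrial chromosome were lower in sum. The 12 that met the threshold, ribosomal RNAs included, summed to 1413 counts in S_PXT1_K118R and 1696 in S_PXT1, a fold of 0.840 (0.782 to 0.902), against 4298, 4488 and 3278 in WT_K118R, WT and PMSCV. MT-ND5, a complex I subunit, had 189 CPM in S_PXT1_K118R and 456 in S_PXT1, beside 593, 681 and 654 CPM in WT_K118R, WT and PMSCV, 2.42-fold lower (1.71 to 3.46). The large ribosomal RNA MT-RNR2 had 814 CPM in S_PXT1_K118R and 1579 in S_PXT1, 1.94-fold lower (1.64 to 2.31). MT-ND4 and MT-ND4L, complex I genes that overlap by a few bases, differed in opposite directions: MT-ND4 had 203 and 2 counts in S_PXT1_K118R and S_PXT1, and MT-ND4L had 0 and 63. Their sum was 203 counts against 65, a log2 ratio of 1.66, and MT-ND4 was near 0 in PMSCV too, with 3 counts. The remaining 8 genes lay within 2-fold. The 5 nuclear genes of the respiratory chain summed to a fold of 1.02 (0.935 to 1.11).

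Cytoskeletal and traffic genes held the most counted gene past 2-fold. TUBA1C (chromosome 12, 49188736 to 49274603), an alpha-tubulin, had 3808 counts in S_PXT1_K118R and 1346 in S_PXT1, or 14970.1 and 5247 CPM, beside 12407 to 15593 CPM in the other 3 libraries. It was 2.85-fold higher (2.68 to 3.04), and S_PXT1 was the low library. The near-identical TUBA1A and TUBA1B lay on the other side, with 1506 CPM in S_PXT1_K118R against 2253 in S_PXT1 for TUBA1A and 3212 against 3871 for TUBA1B. TUBA1A had 35.6 CPM in WT_K118R, 1872 in WT and 1554 in PMSCV, and TUBA1B had 3227, 3933 and 2816. Reads could be shared among these copies, so the split between them is uncertain. The 8 genes of the tubulin list summed to a fold of 1.66 (1.58 to 1.73). TUBA1C gave 3808 of the 5287 summed counts in S_PXT1_K118R and 1346 of the 3221 in S_PXT1. It was the 1 gene of the list past 2-fold, and the list's median log2 ratio was -0.14.

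GMFB, an actin branch-removing protein, had 48 counts in S_PXT1_K118R and 4 in S_PXT1, with 7, 11 and 7 in WT_K118R, WT and PMSCV, 12.1-fold higher (4.43 to 46.2). It was high in S_PXT1_K118R alone. SPTBN1, a beta-spectrin, and RAB2A, a GTPase of the early secretory route, followed the same pattern, at 3.18-fold (1.87 to 5.65) and 3.16-fold (1.74 to 6.08). DIAPH1, an actin-nucleating formin, was low in S_PXT1_K118R alone, with 6 counts against 40 in S_PXT1 and 36 to 49 in the other 3 libraries, 6.61-fold (2.79 to 19.1). RAB11A of recycling endosomes was 2.02-fold lower (1.54 to 2.67), and KPNA1, a nuclear import receptor, was 5.13-fold higher (2.66 to 10.9). Of 13 genes of replication and the cell cycle, 0 were past 2-fold.

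**Figure D2:**
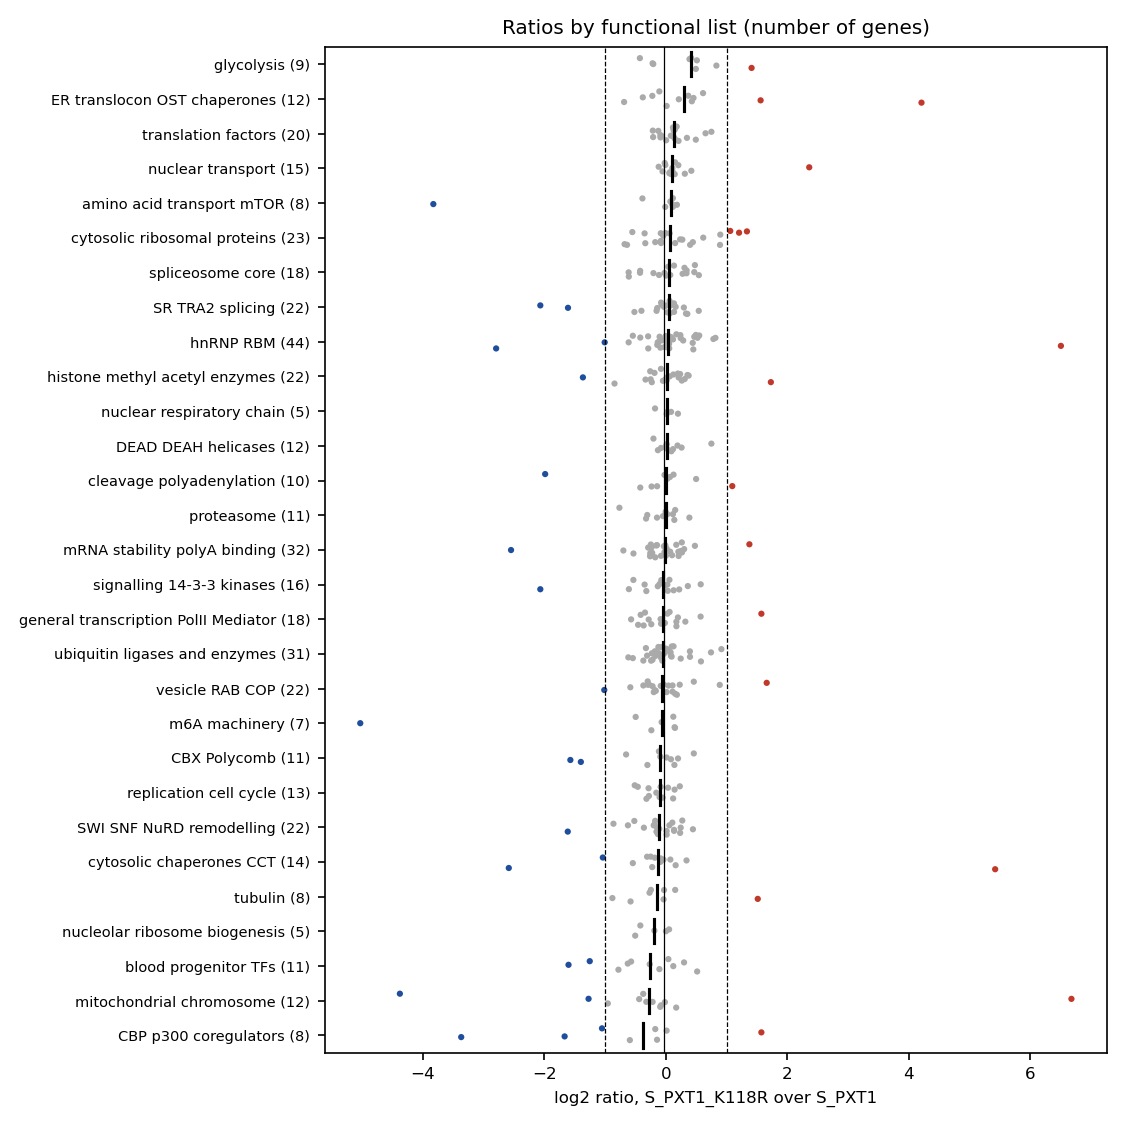
Log2 ratios, S_PXT1_K118R over S_PXT1 (horizontal axis), for the genes of 29 functional lists with at least 5 genes above the threshold, ordered by the list's median (black bar), with the number of genes in parentheses. Red and blue points are at least 2-fold higher or lower, dashed lines mark 2-fold, and the thin line is the median of all 1356 genes. List medians run from -0.38 to 0.42, within 2-fold, and single genes lie far outside.

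Across the lists, 514 of the 1356 genes belonged to at least 1 list, and 19 of them were higher and 24 lower. Of the 842 genes in none, 13 were higher and 18 lower, and over all 1356 genes 5.46% were past 2-fold. The lists were chosen with earlier results of these data known, so this split does not show that such genes gather in the lists. Of 31 lists with at least 5 genes, 10 had no gene past 2-fold. The median of each of the 31 lists lay within 2-fold, and the plot of ratios by list shows 29 of them.

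The other 3 libraries show which member of the pair stood apart. Of the 74 genes, 18 had S_PXT1_K118R at least 2-fold away from each of the other 4 libraries, 12 of them low and 6 high. In 22 genes it was S_PXT1 that stood apart, in 8 as the high library and in 14 as the low one. The remaining 34 had neither alone. The low group in S_PXT1_K118R was YTHDF2, SLC7A6, BCL2L1, HIF1A, DIAPH1, HSP90AA1, SERBP1, CCDC47, DYRK1A, ATAD2, BAZ1A and MT-ND5. The high group was GMFB, SPTBN1, RAB2A, MED1, MYCN and BSG, a chaperone of lactate transporters that was 2.02-fold higher (1.15 to 3.64). S_PXT1 was the high library for CITED2, LDB1, GATA2, NONO, ASXL1, RBM14-RBM4, the ubiquitin ligase TRIM27 and the palmitoyltransferase ZDHHC3, the last with 279 CPM in S_PXT1_K118R and 616 in S_PXT1. By comparison, over the same 1356 genes WT_K118R stood alone in 3 genes as high and 13 as low, WT in 1 and 12, and PMSCV in 0 and 15. The genes were chosen by their counts in the S_PXT1 pair, which favours genes high in that pair.

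**Figure D3:**
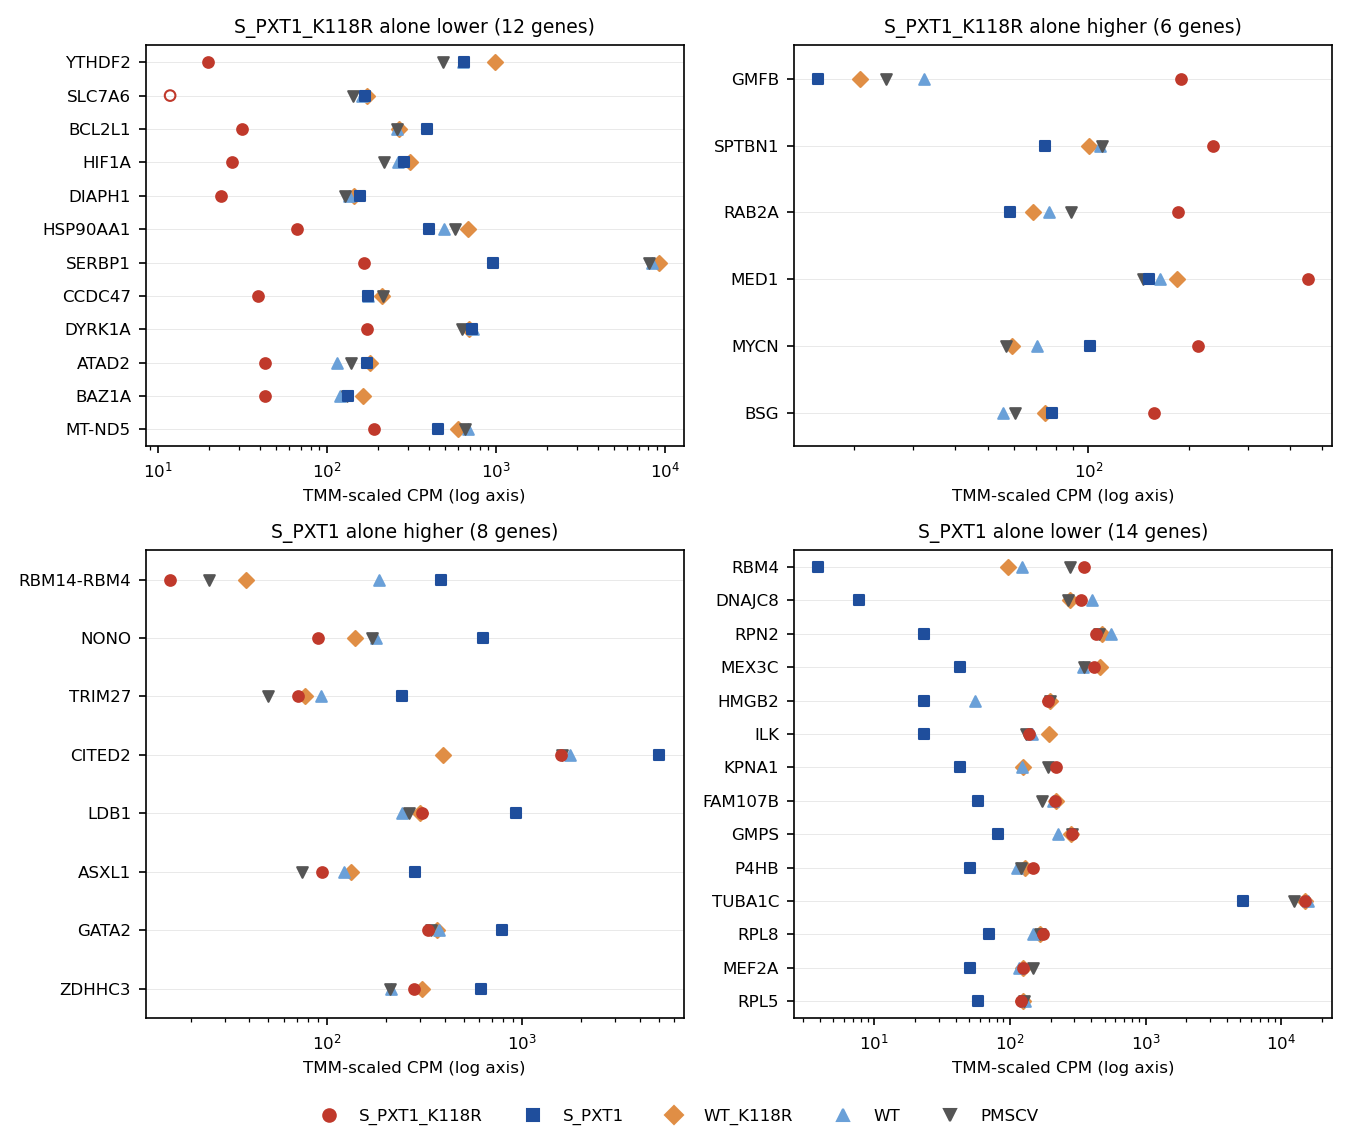
TMM-scaled CPM (horizontal log axes) in the 5 libraries, 1 symbol each, for the 40 genes in which S_PXT1_K118R alone (top) or S_PXT1 alone (bottom) was at least 2-fold away from each of the other 4 libraries. The open circle is a library with 0 counts, drawn at the level of 3 counts. Rows were chosen by this rule, so 1 symbol of the pair lies at least 2-fold from each other symbol, as for BCL2L1 at 31.4 CPM against 259.6 to 389.9 CPM. The remaining symbols of a row can differ too, as for SERBP1.

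The same substitution in the WT background, which shares no library with this pair, gave 32 higher genes (2.36%) and 28 lower (2.06%) among the 1356 for WT_K118R over WT. Of the 32 genes higher in S_PXT1_K118R, 3 were higher by 2-fold in WT_K118R too, 2 were lower and 27 lay within 2-fold. The 3 include SENP3, whose summed locus had a log2 ratio of only 0.52 in the S_PXT1 background. Of the 42 lower genes, 6 were lower there, 4 higher and 31 within 2-fold, and MT-ND4L had no ratio. The 6 include RBM14-RBM4, whose summed locus had a log2 ratio of only -0.23 in the S_PXT1 background. CITED2 was the most counted gene lower in both, with log2 ratios of -1.67 in the S_PXT1 background and -2.16 in the WT background, from 133 counts in WT_K118R and 602 in WT. NSD3 was lower in both as well, at -1.37 and -1.40. HMGB2 and CNOT9 were higher in both, at 3.04 and 1.84 for HMGB2 and 1.37 and 1.27 for CNOT9. LDB1 and GATA2 had ratios of 0.30 and -0.04 in the WT background, and BCL2L1 had 0.04. The difference between the backgrounds was not tested, since each ratio rests on 1 library a side.

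**Figure D4:**
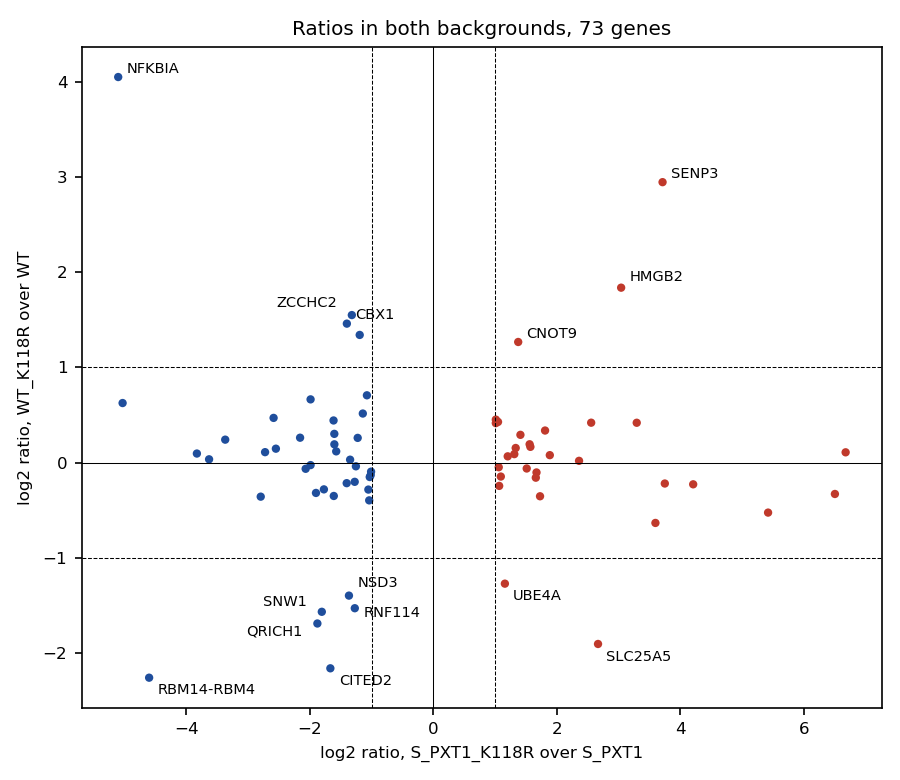
Log2 ratio of WT_K118R over WT (vertical axis) against that of S_PXT1_K118R over S_PXT1 (horizontal axis) for 73 of the 74 genes past 2-fold in the S_PXT1 background, red for higher and blue for lower, with dashed lines at 2-fold. Most points lie between the horizontal dashed lines, and CITED2 (-1.67 and -2.16) and NFKBIA (-5.10, with its 0 counts set to 3, and 4.05) are examples of genes outside them.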

How the data were processed

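RNA from 5 libraries of Ba/F3 cells was analysed, 1 library per group. The authors deposited 1 table, in which each library has a column of counts and a column of FPKM (a rate per gene length and library size), per the file headers. From the submitters' processing notes come the names cutadapt 1.9, FastQC and HISAT2 2.2.1. The sources used here do not say which tool counted reads, or its strand setting, build and annotation. There were 0 value columns without a library.

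Counts were scaled to effective library sizes by the trimmed mean of M values (TMM) over the 5 libraries in edgeR 4.0.16 under R 4.3.3. A count of 1 equalled 3.93 CPM in S_PXT1_K118R and 3.90 CPM in S_PXT1. Folds are ratios of scaled counts with the exact 95% interval (Clopper-Pearson). It covers counting error only, as reads that carry no molecular identifier need not come from separate molecules. A count of 0 was set to 3 counts, and such folds are written as "at least". The minimum was a mean of 20 counts over the pair, and a 2-fold ratio counted as higher or lower. The ratio and interval were tested on simulated counts that held counting error only. That simulation could not check spread between libraries or reads shared among genes.

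Named genes were those past 2-fold at a mean of at least 100 counts, the 15 highest and 15 lowest ratios, up to 4 genes past 2-fold in each direction and the 2 most counted genes of each of 57 functional lists, genes in which 1 library of the pair stood apart (up to 10 in each direction) or the 2 backgrounds were opposite, and genes next to the minimum. Clone names and pseudogenes were left out. Genes named outside this rule (MCL1, EP300, STAT3, NUDT21, TUBA1A, HSP90AB1, MAP3K7, BRAF, JUNB, ENO1, LDHA, LDHB, YTHDF1, YTHDF3, SERP1, DERL1, ZNF800, RPL10A, SPI1, SLC25A4, SLC25A6 and those in the last part) were chosen after their values were seen. CREBBP was also named outside this rule, after its values were seen. The genes and lists were chosen with earlier results of these data known. Alternatives were other scalings (DESeq2 1.42.0 size factors, total counts, TMM over the pair), the deposited FPKM, other count minimums, thresholds and pseudocounts, and summed overlapping gene models. Some items are not reported here.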

Additional observations from a re-analysis of the deposited data

Results flagged for a closer look

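The substitution went in opposite directions by at least 2-fold in the 2 construct backgrounds for 5 named genes, with both intervals excluding 1. The difference was not tested, since each background has 1 library with and 1 without the substitution. NFKBIA had a log2 ratio of -5.10 in the S_PXT1 background (0 counts in S_PXT1_K118R, set to 3 for the ratio, and 104 in S_PXT1) and 4.05 in the WT background (49 in WT_K118R, 3 in WT). CBX1 had -1.40 and 1.46, and ZCCHC2, a zinc finger protein, had -1.32 and 1.55, from 29 counts in S_PXT1_K118R and 73 in S_PXT1, and 104 in WT_K118R and 36 in WT. SLC25A5 had 2.67 and -1.90. UBE4A, a ubiquitin ligase, had 1.16 and -1.27, from 31 counts in S_PXT1_K118R and 14 in S_PXT1, and 18 in WT_K118R and 44 in WT. In PMSCV these 5 genes had 80, 57, 29, 39 and 34 counts.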

How the results depend on the processing

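The counts of higher and lower genes stayed within 1.5 times of 32 and 42 under other scalings, FPKM, pseudocounts of 1 and 5 CPM and summed models, and moved with the cut-offs. A mean of at least 10 gave 69 higher and 94 lower of 1905 genes, 50 gave 6 and 21 of 801, and 100 gave 2 and 10 of 460. Without a filter there were 733 higher and 442 lower of 9284 genes. Of the higher genes 195 had 2 counts against 1, while the 212 genes with 1 count against 2 fell just short of 2-fold after scaling. Thresholds of 1.5-fold and 3-fold gave 71 and 99, and 17 and 24. For the 514 genes in lists (19 higher, 24 lower), a mean of at least 10 gave 32 and 38 of 670 genes, and 50 gave 5 and 16 of 349. Of 60 named genes past 2-fold, summing overlapping models turned the direction of RBM4 (log2 ratio -0.23) and MT-ND4L (1.66) and moved SENP3, RBM14-RBM4 and MT-ND4 out of their intervals. Every other alternative value of these genes, 291 in all, lay within its interval. These alternatives reuse the same counts, so that adds no support to the ratios. Under total counts RAB11A and KHDRBS1 fell short of 2-fold, with log2 ratios of -0.98 and -0.97. Scaling moved the median log2 ratio by at most 0.04. No paired analysis was possible because each group has 1 library. At the threshold of 20 counts, intervals of a 2-fold ratio come close to 1.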

Other observations

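The remaining genes past 2-fold, outside the rule for named genes and chosen after their values were seen, had lower counts or no list. SNW1, a transcription and splicing coregulator, had 19 counts in S_PXT1_K118R and 67 in S_PXT1, 3.50-fold lower (95% interval 2.08 to 6.17). QRICH1 had 34 and 126 counts, 3.68-fold lower (2.50 to 5.54), and RNF114, a ubiquitin ligase, had 23 and 56. These 3 were lower in the WT background too, with log2 ratios of -1.57, -1.69 and -1.53. SERP1 and DERL1, proteins of the endoplasmic reticulum membrane, had 30 and 24 counts in S_PXT1_K118R and 77 and 64 in S_PXT1, and both were low in PMSCV, at 40 and 21 counts. SPEN, a transcriptional repressor, had 14 and 33 counts in S_PXT1_K118R and S_PXT1, the exonuclease ERI3 had 16 and 49, ZNF800 had 17 and 64, MINDY3 had 24 and 51, and AREL1 had 17 and 35. Higher genes were AGO1, an Argonaute protein of microRNA silencing, with 41 counts in S_PXT1_K118R and 20 in S_PXT1, MEF2A, a transcription factor, with 32 and 13, and CFL2, an actin-severing cofilin, with 32 and 16. A gene model with a clone name in place of a symbol was lower as well. FAM107B, named by the rule, had 55 and 15 counts and was low in S_PXT1 alone.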
